A study of Mus musculus with 6 samples.

Results

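AP-1 is the clathrin adaptor of the trans-Golgi network and endosomes, and the 8 mouse genes that encode its subunits were followed in bulk mRNA sequencing of the nucleus accumbens core. The genes are Ap1g1 and Ap1g2 (gamma chains), Ap1b1 (beta chain), Ap1m1 and Ap1m2 (mu chains), and Ap1s1, Ap1s2 and Ap1s3 (sigma chains). They were taken by gene symbol, and all 8 were found among the 24532 genes of the deposited table. The family was looked at because Ap1g2 had one of the smallest p-values in the ethanol against control comparison of these same libraries (rank 4 of 15774 genes tested). The ethanol against control values of the family are therefore given as a description, and no p-value of a member is printed.

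The study sequenced 3 control and 3 ethanol libraries from wild-type male mice, named adolescent and given as postnatal days 35 to 55 in the labels. Per the labels, fear of a context was trained, ethanol was given in 1 day as 6 intraperitoneal injections (20% v/v, 1.8 g/kg and then 1.2 g/kg), the fear was extinguished, and the animals then drank every other day for 27 days before tissue was taken 24 h later. The groups rest on the sample titles and descriptions, because the treatment field names ethanol for all 6 samples. Neither what the controls received nor the mouse strain is stated in the labels. The labels do not say that each library is a separate animal, and do not say whether animals were pooled, so the spread between libraries may be technical.

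The libraries held 35898026 to 67399599 estimated reads, and control 2, with the fewest detected genes (15924), stood apart from the other 5 on the first principal component (35.7% of the variance). Markers of medium spiny neurons, the main neurons of this tissue, were present in every library, with 1719 to 3659 CPM (read counts scaled to a common library size with TMM) summed over 10 genes. In bulk tissue, fewer cells of a type and less RNA per cell cannot be told apart.

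AP-1 is a complex of 4 chains, one each of gamma, beta, mu and sigma. It is recruited to membranes by the small GTPase ARF1 and the lipid phosphatidylinositol 4-phosphate, the mu chain and the gamma-sigma pair read sorting signals in the tails of cargo proteins, and the beta chain binds clathrin. The carriers it forms move mannose 6-phosphate receptors and other proteins between the Golgi and endosomes, and in neurons AP-1 takes part in sending proteins to dendrites. Several chains have paralogs: mu2, encoded by Ap1m2, is the epithelial form, and gamma2 is the less studied partner of gamma1.

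The sequences that bear on the reads counted here are those by which the transcripts of 1 gene differ. Transcript variants 1 and 2 of Ap1g1 differ in the coding sequence by a microexon of 9 bases (mm10 chromosome 8, 109830613 to 109830621, plus strand), and variants 3 and 2 of Ap1s2 by another of 9 bases (chromosome X, 163931363 to 163931371, plus strand). Variant 1 of Ap1s2 ends in a coding exon of its own. The stretches below were read from the GENCODE M21 transcripts matched to the RefSeq variants, 5′ to 3′, and capitals mark the microexon or the coding part of the variant's own last exon.
Ap1g1 variant 1, microexon included: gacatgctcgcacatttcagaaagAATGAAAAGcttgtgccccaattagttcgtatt
Ap1g1 variant 2, microexon skipped: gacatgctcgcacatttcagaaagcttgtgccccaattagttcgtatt
Ap1s2 variant 3, microexon included: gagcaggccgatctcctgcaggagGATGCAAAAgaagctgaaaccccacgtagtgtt
Ap1s2 variant 2, microexon skipped: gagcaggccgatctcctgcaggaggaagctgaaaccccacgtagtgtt
Ap1s2 variant 1, coding part of its own last exon: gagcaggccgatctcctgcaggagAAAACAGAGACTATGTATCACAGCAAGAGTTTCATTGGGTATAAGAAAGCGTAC

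The gamma paralogs also differ at their promoters. Both stretches below are the 250 bases before the RefSeq start (GRCm38.p6) on the gene's own strand, with each CG dinucleotide in capitals. The Ap1g2 stretch, chr14:55106594-55106843 on the minus strand, held 5 CG dinucleotides, and the Ap1g1 stretch, chr8:109778333-109778582 on the plus strand, held 14, where the median of 32851 promoters was 6. The 7 members with an entry ranged up to 30, in Ap1s2.
Ap1g2: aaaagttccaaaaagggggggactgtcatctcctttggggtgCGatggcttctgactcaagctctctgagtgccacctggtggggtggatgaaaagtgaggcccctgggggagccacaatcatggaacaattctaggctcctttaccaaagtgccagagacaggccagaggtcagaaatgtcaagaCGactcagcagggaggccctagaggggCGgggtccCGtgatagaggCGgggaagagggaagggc
Ap1g1: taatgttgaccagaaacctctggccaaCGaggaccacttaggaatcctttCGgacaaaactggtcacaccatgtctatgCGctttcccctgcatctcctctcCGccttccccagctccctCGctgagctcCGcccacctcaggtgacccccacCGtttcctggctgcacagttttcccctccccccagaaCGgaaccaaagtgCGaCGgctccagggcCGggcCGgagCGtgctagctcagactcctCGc

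Per length, the subunit genes differed widely in level, and each class of chain had 1 dominant gene. In FPKM (reads scaled by transcript length and library size, the authors' deposited values summed over a gene's transcripts), Ap1s1 was the highest, with a median of 199 and a range of 162 to 268 over the 6 libraries. Ap1b1 followed at 45.2 to 62.5 and Ap1m1 at 34.9 to 41.1, and the ranges of these 3 genes did not overlap. Next came Ap1s2, at 12.7 to 29.8, and Ap1g1, at 7.30 to 11.1, and below them Ap1g2, at 0.839 to 3.87. Ap1s3 (0.248 to 0.490) and Ap1m2 (0.104 to 0.245) lay at the bottom, with 34 to 96 and 9 to 24 estimated reads a library. The order of the 8 genes was the same in all 6 libraries, since no 2 neighbouring ranges overlapped.

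Among the mu chains, the epithelial Ap1m2 made up 0.39% ± 0.09 of the mu level in control and 0.45% ± 0.22 in ethanol (SD, n = 3 each). Of the epithelial markers, Epcam and Krt8, which encode a surface protein and a keratin of epithelia, were at 0 to 0.41 CPM. Esrp1 and Esrp2 were at 0 to 0.46 CPM. Cdh1 reached 1.14 CPM in control 2 and Krt18 1.31 CPM in control 3, above every Ap1m2 value. Otx2 and Kl, of the same epithelial and choroid plexus list, stood at 2.29 to 6.12 CPM. Control 3, in which the choroid plexus gene Ttr reached 394 CPM against 0.73 to 4.63 in the others, had Ap1m2 at 0.27 CPM, inside the range of the other 5. Among the sigma chains, Ap1s1 made up 87.2% to 93.2% of the level, Ap1s2 6.68% to 12.7%, and Ap1s3 a mean of 0.15% in control and 0.14% in ethanol.

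Ap1g2, the gamma2 chain, was lower in the ethanol libraries. It stood at 11.9, 8.47 and 9.79 CPM in control 1, 2 and 3, and at 2.98, 3.21 and 4.91 CPM in ethanol 1, 2 and 3. The highest ethanol library lay below the lowest control library, and ethanol 3 was the ethanol library nearest to the controls. The group means were 10.1 ± 1.75 and 3.70 ± 1.05 CPM (SD, n = 3 each), a level 2.73-fold lower in ethanol, or -1.45 (SE 0.27) as log2 fold change. Leaving out single libraries gave -1.70 without ethanol 3 to -1.30 without control 1.

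Its paralog Ap1g1, the gamma1 chain found in most cells, did not share this pattern. Ap1g1 stood at 72.5, 75.9 and 68.4 CPM in control and at 94.3, 63.6 and 91.4 CPM in ethanol. Ethanol 2 was below every control and the other ethanol libraries above every control, so the groups overlapped. The log2 fold change was 0.20 (SE 0.19), and it ranged from 0.10 without ethanol 1 to 0.35 without ethanol 2.

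Set side by side within a library, the gamma2 chain made up a smaller part of the gamma level in ethanol. By FPKM, the share of Ap1g2 in the sum of both genes was 30.03%, 22.2% and 27.4% in control 1, 2 and 3. In ethanol 1, 2 and 3 it was 7.46%, 11.4% and 12.3%. Every ethanol library lay below every control library, with means of 26.5% ± 4.00 and 10.4% ± 2.57 (SD, n = 3 each). Because this share divides 2 genes of the same library, it does not depend on how libraries are scaled to each other. It is built from the Ap1g2 values for which the family was chosen, so it describes the same difference again and is not separate support. The ratio of Ap1g1 to Ap1g2 ran from 2.33 to 3.51 in control and from 7.13 to 12.4 in ethanol, so Ap1g1 remained the more abundant gamma gene in each of the 6 libraries. Summed over both, the gamma level was 12.2 ± 0.65 FPKM in control and 10.7 ± 2.24 in ethanol, and the groups overlapped.

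**Figure D1:**
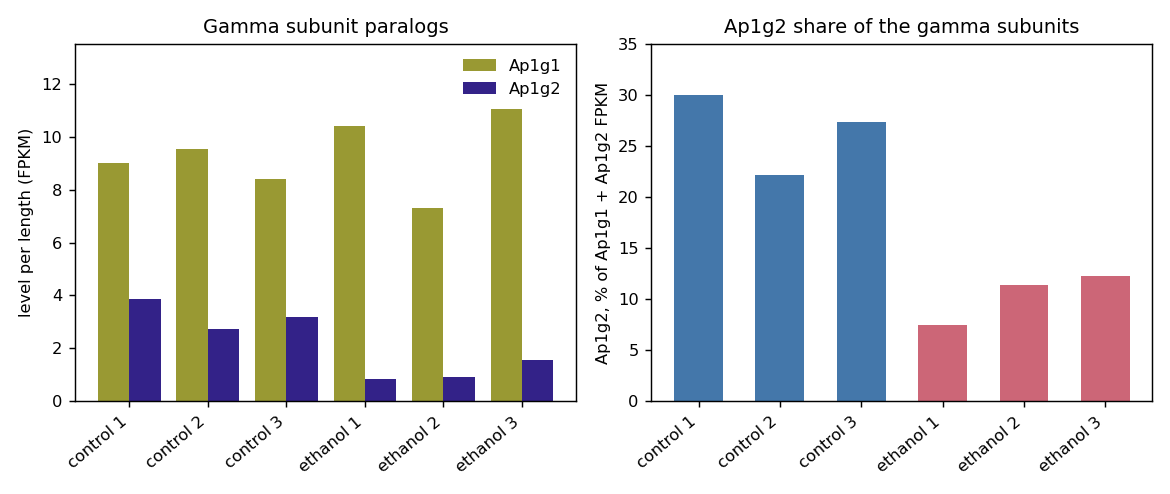
Left, level per length in FPKM of Ap1g1 and Ap1g2 in each of the 6 libraries; right, Ap1g2 as a percentage of the FPKM of both genes, with control libraries in blue and ethanol libraries in red. The share is 22.2% to 30.03% in control and 7.46% to 12.3% in ethanol, while Ap1g1 is the higher gene throughout.

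Ap1b1 encodes the single beta chain of AP-1. The 3 controls had 251, 220 and 241 CPM and the 3 ethanol libraries 344, 266 and 256 CPM. All ethanol libraries lay above all controls, but ethanol 2 and 3 by little and ethanol 1 by much. The log2 fold change of 0.28 (SE 0.17) was 0.14 without ethanol 1. Ap1m1, the mu chain of most cells, was the steadiest member: it stood at 100, 89.8 and 89.95 CPM in control and 106, 92.1 and 91.7 CPM in ethanol. These values interleave, with a log2 fold change of 0.05 (SE 0.15) that became -0.04 when libraries were scaled by total counts alone.

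Of the small chains, Ap1s1 was the most abundant and Ap1s2 the only one without overlap between groups. Ap1s1 stood at 288, 302 and 346 CPM in control and at 287, 433 and 249 CPM in ethanol, where ethanol 2 was the highest and ethanol 3 the lowest of all libraries. Its log2 fold change was 0.05 (SE 0.22), -0.04 with total counts alone, and ran from -0.23 without ethanol 2 to 0.21 without ethanol 3. Ap1s2, an X-linked gene whose human counterpart is mutated in a form of intellectual disability, stood at 57.7, 78.2 and 55.6 CPM in control and at 37.7, 54.5 and 54.3 CPM in ethanol. Ethanol 2 and 3 lay just under the lowest control, ethanol 1 was the lowest and control 2 the highest. The log2 fold change was -0.39 (SE 0.21), and it was -0.21 without control 2. Ap1s3, the scarce sigma chain, stood at 1.67, 0.88 and 0.96 CPM in control and at 0.96, 1.12 and 1.15 CPM in ethanol, and Ap1m2 at 0.42, 0.26 and 0.27 and at 0.33, 0.56 and 0.24 CPM. In both scarce genes the groups overlapped, and with log2 fold changes of -0.13 (SE 0.43) and 0.24 (SE 0.64) no difference was detectable at this depth. The sign itself turned when 1 library was left out: Ap1s3 had 0.22 without control 1 and Ap1m2 had -0.15 without ethanol 2.

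**Figure D2:**
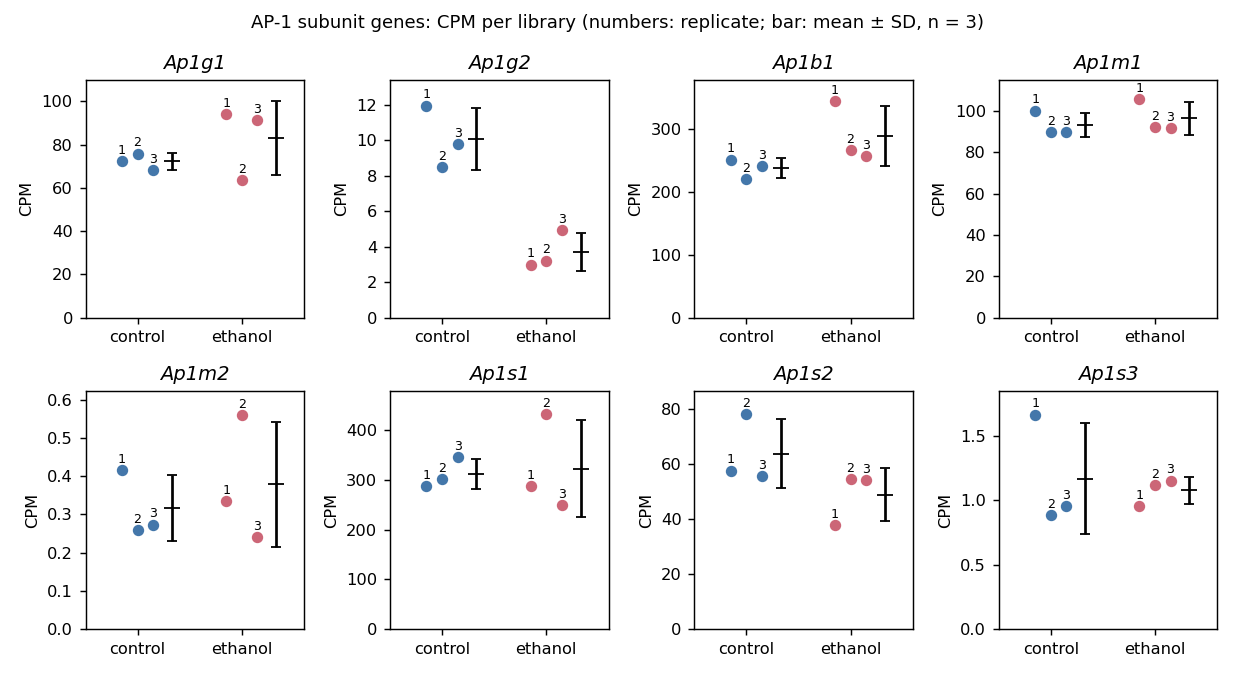
CPM of the 8 subunit genes in each library (points, numbered by replicate) with the group mean ± SD (n = 3), 1 panel a gene with its own axis from 0. The 3 ethanol points of Ap1g2 lie at 2.98 to 4.91 CPM, below the control points at 8.47 to 11.9, while Ap1g1, Ap1m1, Ap1m2, Ap1s1 and Ap1s3 overlap.

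Counted over the family, all 8 genes passed the filter on low counts, 5 had a positive and 3 a negative log2 fold change, and the median was 0.05, where it was 0.02 over all 15774 genes tested. Scaled by total counts alone, 3 were positive and 5 negative, with a median of -0.04 against -0.06 over all genes, and without ethanol 2 the split was again 3 and 5. By edgeR's quasi-likelihood test with Benjamini-Hochberg adjustment 0 of the 8 were called, as were 0% of all genes. At an unadjusted p under 0.05 there was 1 of the 8, Ap1g2, against 10.7% of all genes (5.31% higher and 5.34% lower in ethanol). DESeq2 called 1, again Ap1g2, against 0.913% of all genes, and limma-voom called 0% of all genes. Groups did not overlap for 3 members (Ap1b1 above, Ap1g2 and Ap1s2 below), against 17.8% of all genes (9.35% above and 8.41% below). The family was chosen on this contrast, so nothing is read from these counts.

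The split of Ap1g2 reads between its variants differed widely between libraries of 1 group. Variant 2 took 481, 0 and 358 reads in control 1, 2 and 3, and 11, 6 and 162 in ethanol 1, 2 and 3, while variant 1 took 207, 326 and 0 reads and 176, 126 and 21. Control 2 thus had reads of variant 1 alone, control 3 of variant 2 alone, and ethanol 1 and 2 resembled control 2 in this split. The variants span the same interval in the table and differ in length by 77 bases, and their reads are estimates split between them. Only the sum over both separated the groups: fitted apart, variant 1 had a log2 fold change of -0.89 (-1.45 for the sum) and variant 2 one of -1.94.

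The microexon splits were uneven as well. Variant 2 of Ap1g1, which skips the microexon, took 28.9% of the gene's reads in control 1, 9.11% in control 2, 2.76% in control 3, 14.5% in ethanol 1, 3.45% in ethanol 2 and 2.94% in ethanol 3. Groups overlapped, and the highest share was in a control library. Variant 2 of Ap1s2, which also skips a microexon, took 31.3% of the reads in ethanol 2 (701 reads) and 1.18% to 3.97% (24 to 110 reads) in the other 5 libraries. In ethanol 2 variant 3, with the microexon, took 66.0%, against 93.1% to 94.8% elsewhere. Microexons are included mainly in neurons, through splicing factors such as that encoded by Srrm4. Srrm4 and its relative Srrm3 were looked up after these splits were seen. Srrm4 was lowest in ethanol 2, at 15.02 CPM against 25.8 to 36.5 CPM elsewhere, but Srrm3, at 49.0 CPM in ethanol 2, lay inside the range of the other libraries (45.4 to 65.3 CPM). For the Ap1g1 microexon, the skipping variant took 3.45% in ethanol 2 and its highest share, 28.9%, in control 1. In control 1 Srrm4 stood at 31.5 CPM and Srrm3 at 65.3 CPM. The reads of these variants are estimates, split between transcripts that differ in the coding sequence by only 9 bases. The part of Srrm4 or Srrm3 in these splits was not tested. Variant 1 of Ap1s2 took 3.46%, 5.45% and 4.04% in control 1, 2 and 3 and 2.70%, 2.72% and 3.11% in ethanol 1, 2 and 3. These shares, of 61 to 164 reads, did not overlap between groups, and fitted apart the variant had a log2 fold change of -1.002. How many of all transcripts had shares without overlap was not counted. In that fit edgeR's quasi-likelihood test with Benjamini-Hochberg adjustment called 0 of 22527 transcripts, so nothing is read from this variant. Variant 3 of Ap1b1 took from 4.57% in control 2 to 18.6% in ethanol 1.

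**Figure D3:**
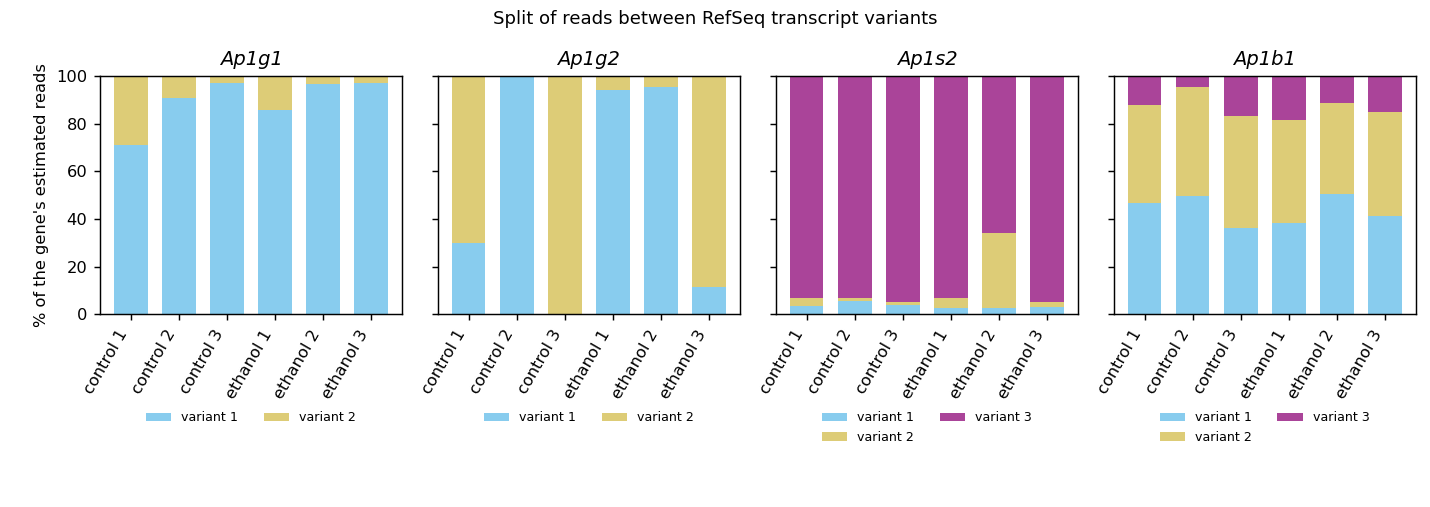
Share of each gene's estimated reads, in percent, that was assigned to each RefSeq transcript variant of Ap1g1, Ap1g2, Ap1s2 and Ap1b1 in the 6 libraries. The Ap1g2 split runs from all variant 1 in control 2 to all variant 2 in control 3, and Ap1s2 variant 2 reaches 31.3% in ethanol 2 alone.

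The longest stretch shared by the transcripts of Ap1g1 and Ap1g2 was 13 bases, and it was at most 26 bases between the other paralogs compared, Ap1m1 with Ap1m2 and the sigma genes with each other. Among the members, Ap1b1 lies on chromosome 11 from 4947521 to 5042794, Ap1g1 on chromosome 8 from 109778583 to 109864209, Ap1s1 on chromosome 5 from 137034994 to 137046060 and Ap1s2 on chromosome X from 163909017 to 163933666 (mm10). Ap1g2 lies on chromosome 14 from 55098835 to 55106593 (mm10, minus strand). Its end overlaps the end of Thtpa, a thiamine triphosphatase gene on the plus strand, by 161 bases, and 3.35% of the 50-base windows of the Ap1g2 transcript lay in transcripts of genes on the other strand. No label or header says whether the counting used strand. Thtpa stood at 41.5, 42.3 and 38.1 CPM in control and at 47.3, 42.1 and 42.6 CPM in ethanol. The log2 fold change was 0.11 (SE 0.15). Jph4, a junctophilin gene that lies 232 bases from Ap1g2, had one of 0.10 (SE 0.16), and Zfhx2, 6786 bases away, had -0.18 (SE 0.34). The groups overlapped for each of these neighbours. The interval of Ap1b1 overlaps that of Nefh, a neurofilament gene on the other strand, by 544 bases, but 0% of the Ap1b1 windows were shared with another gene. Of the Ap1g1 windows 18.9% were shared with an opposite-strand gene model, and of the Ap1s3 windows 16.8% with 289 other genes, so the levels of these genes are less certain.

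Other transcripts were lower in the same libraries as Ap1g2. Neat1, a long noncoding RNA that builds nuclear paraspeckles, stood at 199, 169 and 211 CPM in control and 72.4, 77.98 and 124 CPM in ethanol. As a percentage of the control mean, Neat1 was at 37.5, 40.4 and 64.1 in ethanol 1, 2 and 3, and Ap1g2 at 29.6, 31.9 and 48.8. Both had ethanol 3 nearest to the controls. All 6 nuclear-retained noncoding RNAs that were listed had a negative log2 fold change, with a median of -1.07. Of all 15774 genes, 7462 had a negative one. The list was chosen with earlier results of these data known, so nothing is read from its counts. By edgeR's quasi-likelihood test none was called and 4 had an unadjusted p under 0.05 (5.34% of all genes were lower at that p). DESeq2 called 3, where it called 93 of all genes lower and 0.913% in either direction. Neat1, Snhg11 and Kcnq1ot1 did not overlap between groups (8.41% of all genes lay below in this way), the last 2 with log2 fold changes of -1.29 and -1.32. Malat1, Meg3 and Miat did overlap, at -0.51, -1.06 and -0.66, which were -1.04, -1.59 and -1.12 without ethanol 3. At the other end Malat1 had -0.23 and Meg3 -0.81 without ethanol 2, and Miat -0.31 without control 1. The summed level of the 6 RNAs was 3262 to 5508 CPM in control and 1319 to 3282 CPM in ethanol, and its part in the Ap1g2 difference was not tested.

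**Figure D4:**
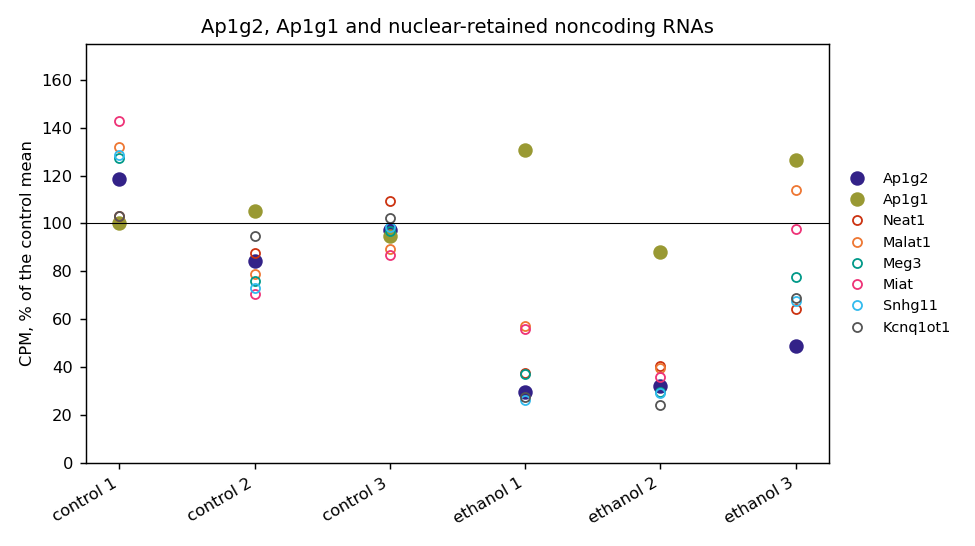
CPM of Ap1g2, Ap1g1 and 6 nuclear-retained noncoding RNAs in each library, as a percentage of that gene's mean over the control libraries. Ap1g2 is at 29.6, 31.9 and 48.8 in ethanol 1, 2 and 3, within the range of the noncoding RNAs in ethanol 1 and 2 and under all of them in ethanol 3, and Ap1g1 is at 131, 87.96 and 127.

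Markers of other cell types were summed in the same libraries. Over all 15774 genes tested, 52.7% were higher in ethanol and 7462 lower by the sign of the log2 fold change. Cortical glutamatergic neuron markers summed to 155 to 401 CPM in control and 112 to 151 CPM in ethanol, with 5 of 7 tested genes lower. The largest parts of that sum went in opposite directions. Slc17a7 stood at 58.2 to 289 CPM in control and 9.42 to 55.95 CPM in ethanol. Lamp5 stood at 49.2 to 65.3 CPM in control and 57.6 to 110 CPM in ethanol, with overlap and a log2 fold change of 0.49. Meningeal fibroblast markers summed to 903 to 1294 and 582 to 1037 CPM, with 9 of 9 lower. Most of that sum was 1 gene, Ptgds, at 848 to 1197 CPM in control and 533 to 993 CPM in ethanol, and its groups overlapped. Oligodendrocyte markers summed to 18596 to 21923 and 15416 to 19689 CPM (6 of 7 lower), endothelial and mural markers to 238 to 281 and 203 to 241 CPM (4 of 7 lower), and epithelial and choroid plexus markers to 11.9 to 410 and 10.2 to 12.3 CPM (5 of 7 lower). Most of the oligodendrocyte sum was Mbp, at 12209 to 14047 CPM in control and 9671 to 13730 CPM in ethanol, and its groups overlapped. Most markers had a positive log2 fold change among medium spiny neuron markers (9 of 10 higher, 1719 to 2083 against 1767 to 3659 CPM), astrocyte markers (5 of 7 higher, 2017 to 2383 against 2306 to 2733 CPM) and microglia markers (5 of 7 higher, 332 to 424 against 353 to 563 CPM). The highest medium spiny neuron sum was that of ethanol 2 alone, with 2113 and 1767 CPM in ethanol 1 and 3, and without ethanol 2 only 6 of its 10 markers were higher. Without ethanol 2, too, 4 of 7 microglia and 4 of 7 endothelial and mural markers were higher. No defining marker of these lists was at 0 in all libraries. The part of these cell types in the Ap1g2 difference was not tested.

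Genes that work with AP-1, and the subunits of the separate adaptor complexes AP-2 to AP-5, were taken as 7 lists by function. Of 73 genes, all tested, 56 had a positive and 17 a negative log2 fold change, with a median of 0.20 against 0.02 over all genes, of which 52.7% were positive. Scaled by total counts alone, 44 of the 73 were positive, where 41.8% of all genes were, and the medians were 0.11 and -0.06. The clathrin and GGA list then had 2 of 6 positive and the cargo list 4 of 9. By edgeR's quasi-likelihood test with Benjamini-Hochberg adjustment 0 of the 73 were called (smallest adjusted p = 0.43), and DESeq2 and limma-voom called 0 as well. At an unadjusted p under 0.05 there were 9 higher and 2 lower, 15.1% of the genes, where all genes gave 10.7%. Without ethanol 2, edgeR called 3 of them higher, Dnajc6, Heatr5b and Sorl1, as it then did 1.26% of all genes (201 of 15920).

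AP-2, the clathrin adaptor of the plasma membrane and synapse, had 4 of 5 subunit genes with every ethanol library above every control, as 9.35% of all genes had. The remaining gene, Ap2s1, had a log2 fold change of -0.17 (SE 0.24). Ap2b1, the beta chain and closest relative of Ap1b1, stood at 279, 288 and 266 CPM in control and at 430, 329 and 340 CPM in ethanol. Its log2 fold change was 0.40 (SE 0.16, edgeR adjusted p = 0.45), and 0.27 without ethanol 1. Ap2a2, an alpha chain, had 0.40 (SE 0.17, edgeR adjusted p = 0.46), 0.24 without ethanol 1, and Ap2m1, the mu chain, 0.20 (SE 0.14, edgeR adjusted p = 0.62).

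AP-3, AP-4 and AP-5, which serve lysosome-related, Golgi and late endosomal sorting, had values of both signs, with 8 of 15 genes positive and a median of 0.11. Ap4e1, the epsilon chain of AP-4, stood at 19.7, 16.1 and 18.3 CPM in control and at 7.11, 7.99 and 14.3 CPM in ethanol. It was lowest in ethanol 1 and 2 and nearest to the controls in ethanol 3, with a log2 fold change of -0.88 (SE 0.27, edgeR adjusted p = 0.43), or -1.26 without ethanol 3. Ap3m1, a mu chain of AP-3, had -0.50 (SE 0.20, edgeR adjusted p = 0.45), with ethanol 3 at 45.0 CPM against 46.0 to 51.4 in control. Ap5b1, the beta chain of AP-5, was low in level and had 0.72 (SE 0.28, edgeR adjusted p = 0.45), at 2.54 to 2.78 CPM in control and 3.34 to 5.64 in ethanol.

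Clathrin chains and GGAs, the monomeric Golgi adaptors, had 4 of 6 genes positive and a median of 0.05. The heavy chain gene Cltc stood at 0.33 (SE 0.19) on the log2 scale, and the light chain genes Clta and Cltb at 0.31 (SE 0.19) and -0.07 (SE 0.18). In all 3 the groups overlapped, and without ethanol 2 Clta had 0.10, and without ethanol 3 Cltb had 0.07.

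Accessory and uncoating proteins had 12 of 15 genes positive and a median of 0.13. Clint1, which binds AP-1 and clathrin, stood at 33.9, 37.9 and 32.5 CPM in control and 54.3, 39.6 and 47.4 CPM in ethanol, with a log2 fold change of 0.44 (SE 0.17, edgeR adjusted p = 0.45). Dnajc6, the neuronal auxilin that strips clathrin coats, had 0.52 (SE 0.21, edgeR adjusted p = 0.45), and ethanol 2 lay inside the control range at 158 CPM, against 273 and 244 in ethanol 1 and 3. Heatr5b, an AP-1 partner, had 0.63 (SE 0.28), with ethanol 2 at 29.1 CPM, under the controls, and ethanol 1 and 3 at 69.7 and 54.1. Without ethanol 2 the values were 0.71 for Dnajc6 (edgeR adjusted p = 0.039) and 0.89 for Heatr5b (edgeR adjusted p = 0.038), and without ethanol 1 they were 0.36 and 0.33.

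ARF proteins, their exchange factors and phosphatidylinositol 4-kinases, which bring AP-1 to membranes, had 8 of 10 genes positive and a median of 0.22. Arf3, an ARF abundant in brain, stood at 647, 677 and 557 CPM in control and 904, 820 and 802 CPM in ethanol. All ethanol libraries lay above all controls, with a log2 fold change of 0.43 (SE 0.15, edgeR adjusted p = 0.44). The kinase genes Pi4k2a and Pi4k2b had 0.28 (SE 0.17), or 0.17 without ethanol 1, and -0.56 (SE 0.31).

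Cargo proteins of AP-1 had 7 of 9 genes positive and a median of 0.07. Sorl1, a sorting receptor for the amyloid precursor protein, stood at 51.7, 59.5 and 35.1 CPM in control and at 147, 35.8 and 97.7 CPM in ethanol, so that ethanol 2 was apart from the other ethanol libraries. Its log2 fold change was 0.94 (SE 0.42, edgeR adjusted p = 0.47), with 1.31 without ethanol 2 (edgeR adjusted p = 0.039) and 0.45 without ethanol 1. M6pr, a mannose 6-phosphate receptor, had 0.24 (SE 0.16), and Atp7a, a copper pump, 0.33 (SE 0.32), or 0.02 without ethanol 3.

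Lysosomal hydrolases, which mannose 6-phosphate receptors deliver, had 13 of 13 genes with a positive log2 fold change and a median of 0.25, where 52.7% of all genes were positive. By edgeR's adjusted p 0 passed, and 3 were higher at an unadjusted p under 0.05, as were 5.31% of all genes. With total counts alone, and also without ethanol 2, 11 of the 13 were positive. Gaa, the acid alpha-glucosidase, stood at 816, 772 and 707 CPM in control and 1409, 967 and 1038 CPM in ethanol. Its groups did not overlap, with a log2 fold change of 0.57 (SE 0.18, edgeR adjusted p = 0.43). Arsb, arylsulfatase B, and Gusb, beta-glucuronidase, had 0.68 (SE 0.21, edgeR adjusted p = 0.43) and 0.36 (SE 0.16, edgeR adjusted p = 0.47), again without overlap. These 3 were named for the lowest unadjusted p of the list. Of the 13 genes, 4 had every ethanol library above every control, as 9.35% of all genes had. Without ethanol 1 Gaa had 0.39 and Arsb 0.51, and without ethanol 2 Gusb had 0.31.

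**Figure D5:**
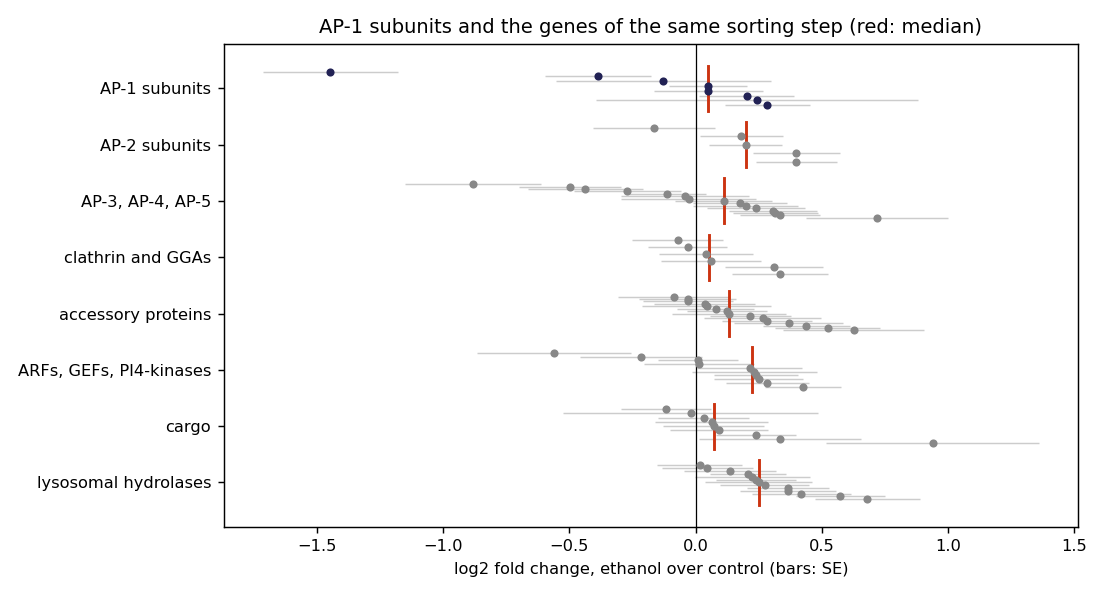
Log2 fold change of ethanol over control with its SE for each AP-1 subunit gene and each gene of the 7 lists, with the list's median in red. Ap1g2, for whose difference in this contrast the family was chosen, lies at -1.45. Of the 73 other genes the lowest is Ap4e1 at -0.88 and the highest Sorl1 at 0.94.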

How the data were processed

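The authors deposited 1 table with a row per RefSeq transcript and, per the file headers, a read count and an FPKM for each of the 6 samples. The submitters' processing notes name mm10 and bcl2fastq, and no aligner or counter is named in what was read here. The deposited counts are estimated counts. Within 0.05 reads, 99.98% to 100% of transcripts with at least 10 reads equalled the deposited FPKM times length and a library scale, rounded up. That scale was fitted for each library from the same counts and FPKM. The design had assumed read counts; these estimates are already whole and were summed from 36780 transcripts to 24532 genes.

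Genes were filtered with filterByExpr (minimum count 10), scaled with TMM and tested with the quasi-likelihood test of edgeR 4.0.16 in R 4.3.3, two-sided, group as the only term, Benjamini-Hochberg adjustment over 15774 genes, threshold 0.05. SE is the log2 fold change over the root of F. The biological coefficient of variation was 0.252. A level of 3 reads is 0.045 to 0.084 CPM, for counting error only. Alternatives were DESeq2 1.42.0, voom in limma 3.58.1 (plain or weighted by sample), other scalings, no filter, a replicate block, unsummed transcripts and fits without each sample; counts of lists by sign under other scalings were added after seeing the data. On simulated counts for this comparison, over 15774 genes, edgeR called 85% of the 4-fold and 44.5% of the 2-fold changes, and 6.08% of its calls were false. The simulated counts were drawn for each gene on its own. They lack differences between libraries of a group that many genes share, so these rates may not hold for the real libraries.

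The members and lists were chosen with earlier results of these data known. Named were all members, 3 genes per pathway list (lowest unadjusted p), the nuclear-retained RNAs, neighbours within 10 kb of Ap1g2, and the 5 genes most like Ap1g2 (mean log2 CPM at least 3, gene models left out). Promoters are RefSeq's (GRCm38.p6, 7 of 8 members matched), and figures were drawn with matplotlib 3.10.9.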

Additional observations from a re-analysis of the deposited data

How the results depend on the processing

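In edgeR 0 genes were called higher and 0 lower in ethanol. DESeq2 called 51 and 93. Fits without single samples called 0 to 201 genes higher and 0 to 10 lower, with 201 and 10 without ethanol 2 and 1 higher without control 1. Of the pathway genes such fits called 0 to 3, all 3 without ethanol 2. The log2 fold change of Ap1g2, -1.45, ran from -1.70 to -1.30 without single samples, and was -0.89 for variant 1 and -1.94 for variant 2 tested unsummed. Its mean share of the gamma level, 26.5% in control and 10.4% in ethanol, was 12.2% and 4.32% in counts not divided by length, since Ap1g1 transcripts are longer, and ran from 24.8% to 28.7% and from 9.41% to 11.8% without single samples. With the replicate block the log2 fold change of Ap1g2 was -1.47 and 0 genes were called. Deviations of same-numbered samples from their group means correlated at 0.15, -0.03 and -0.02, where differently numbered samples gave -0.22 to 0.19. These values show no sign that the numbers pair the samples, but with 3 samples a group they cannot exclude it. Scaling by total counts alone moved the median log2 fold change of all genes from 0.02 to -0.06. Ap1m2 and Ap1s3, with 9 to 96 reads a library, are limited by depth.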

Other observations

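Among 10448 genes with a mean log2 CPM of at least 3, those whose log2 CPM followed Ap1g2 most closely over the 6 libraries were Dcun1d2 (Pearson r = 0.99), a cullin neddylation gene, Sav1 (0.99), a Hippo pathway scaffold gene, Donson (0.99), a DNA replication gene, Rps6kb2 (0.99), a ribosomal S6 kinase gene, and Zkscan3 (0.99), a zinc finger repressor gene. They are the top of a ranking over all these genes with 6 points each, in which 277 genes had an r over 0.9, so the values describe these libraries only. Their log2 fold changes were unequal, from -0.17 for Dcun1d2 and -0.28 for Sav1 to -0.50 for Zkscan3, -0.74 for Donson and -1.16 for Rps6kb2. Donson stood at 20.1, 16.9 and 17.4 CPM in control and at 9.05, 9.96 and 13.6 CPM in ethanol, with ethanol 3 nearest to the controls. Donson was picked for its likeness to Ap1g2, so this order follows from the choice and is not separate support. Of the other AP-1 subunits, Ap1s2 had an r of 0.63 with Ap1g2, Ap1s3 one of 0.33, and Ap1b1 one of -0.73. The paralog Ap1g1 had one of -0.34, Ap1m2 -0.31, Ap1m1 -0.29 and Ap1s1 -0.21.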
